A study of Mus musculus with 6 samples.

Results

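The subunits of the hypoxia-inducible factors (HIF) and the enzymes that sense oxygen for them were measured as transcripts in single cells of the male mouse genioglossus, the muscle that draws the tongue forward. The set was taken by gene symbol and holds 9 of the 33696 genes in the files: Hif1a, Epas1, Hif3a, Arnt, Vhl, Egln1, Egln2, Egln3 and Hif1an, each with 1 entry. The libraries were made with droplet-based 10x Genomics chemistry from dissociated muscle, and each value starts from raw counts of unique molecular identifiers (UMIs). The OSA group, called OSA-4W in the study, was collected at week 4 after modelling obstructive sleep apnea (OSA), and the control group at the same time. The values come from OSA replicates 1, 2 and 3 and from control replicate 2. Control replicates 1 and 3 enter no expression value, since their counts were not used here. All libraries carry the same batch label. How the model was made, the strain and age of the mice, and whether each library came from 1 mouse are not given in the sources used here. All p-values therefore measure the spread between these libraries, and with 1 control library that spread comes from the OSA libraries.

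HIF is a transcription factor made of an oxygen-regulated alpha subunit, encoded by Hif1a, Epas1 (HIF-2 alpha) or Hif3a, and a stable beta subunit, encoded by Arnt. When oxygen is present, the prolyl hydroxylases encoded by Egln1, Egln2 and Egln3 mark the alpha subunit, and the protein encoded by Vhl brings it to a ubiquitin ligase for degradation. The asparaginyl hydroxylase encoded by Hif1an, known as factor inhibiting HIF, blocks the binding of coactivators instead. Most of this control acts on protein, so transcript counts show which parts of the system a cell can make and not whether HIF is active. Epas1 is known for its strong transcription in blood vessels, and Hif1a is known as a regulator of glycolysis in myeloid cells.

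HIF binds short motifs with the core ACGTG or GCGTG, and some genes of the system are known to be HIF targets themselves. The 250 bases before the start of transcription are shown for Hif1a, Egln1 and Egln3, an alpha subunit and the sensors whose levels separated cell classes most clearly below. The sequences are from RefSeq on build GRCm38.p6, which is not the build of the count files, and capitals mark each ACGTG or GCGTG read on either strand. Hif1a lies at chr12:73907617-73907866 on the plus strand, Egln1 at chr8:124949255-124949504 on the minus strand and Egln3 at chr12:54203875-54204124 on the minus strand.
Hif1a: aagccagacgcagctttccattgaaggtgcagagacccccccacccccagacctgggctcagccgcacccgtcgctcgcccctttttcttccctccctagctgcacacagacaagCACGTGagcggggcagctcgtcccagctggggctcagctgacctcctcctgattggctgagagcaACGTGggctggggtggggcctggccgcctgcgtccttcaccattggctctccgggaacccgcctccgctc
Egln1: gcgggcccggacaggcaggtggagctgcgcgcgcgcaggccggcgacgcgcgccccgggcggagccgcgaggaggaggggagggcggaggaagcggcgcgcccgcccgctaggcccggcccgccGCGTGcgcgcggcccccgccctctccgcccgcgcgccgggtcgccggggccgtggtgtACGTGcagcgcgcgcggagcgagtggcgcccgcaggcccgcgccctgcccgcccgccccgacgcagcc
Egln3: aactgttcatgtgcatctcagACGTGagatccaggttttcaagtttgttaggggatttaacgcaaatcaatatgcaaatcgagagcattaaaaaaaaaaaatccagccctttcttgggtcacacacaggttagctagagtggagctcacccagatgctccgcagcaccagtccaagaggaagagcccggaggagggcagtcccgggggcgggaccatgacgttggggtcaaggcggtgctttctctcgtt
In Hif1a the capitals CACGTG hold overlapping matches on both strands, whose first bases lie 135 and 134 bases before the start, and a further ACGTG begins 70 bases before it. Egln1 held GCGTG 126 bases and ACGTG 68 bases before the start, and Egln3 held ACGTG 229 bases before it. Of 32851 promoters of this length, 38.6% held either core and 16.6% held ACGTG. The 8 members with a promoter entry had 9 promoters, of which 7 held a core. These 7 belonged to 6 members, and the promoters of Vhl and Hif1an held neither core. Epas1 had no entry.

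The OSA libraries held 12618 to 15743 barcodes and 74007957 to 82184913 UMIs, and the control library 13719 barcodes and 70217449 UMIs. The median barcode held 3889, 4879 and 4579 UMIs in OSA libraries 1, 2 and 3, and 4111 UMIs in the control library. Pairs of all 6 libraries shared 41 to 67 barcodes, and pairs of the 4 libraries with expression values 52 to 67. After filters, 54455 cells that were not called doublets fell into clusters, which were named from marker genes read in the same counts, so class names carry "-like". A total of 10 classes had at least 30 cells in every library. Although the labels call the samples skeletal muscle cells, no cluster could be kept as myofibre. A cluster of 13, 53 and 16 barcodes in OSA libraries 1, 2 and 3 and 18 in the control library was led by Acta1, Mb and Tnnt3. OSA library 2 stood apart in neutrophil transcripts outside neutrophils: the 10 neutrophil markers summed to 33.0, 618 and 39.5 CPM (counts scaled to 1000000 UMIs) in endothelial-like cells of OSA libraries 1, 2 and 3, and 6.10 CPM in those of the control library.

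Epas1 was the alpha subunit of the vessel wall. Its level is given as CPM, counted over all UMIs of the class in a library. Endothelial-like cells held 1040, 1101 and 1189 CPM in OSA libraries 1, 2 and 3, and 1059.5 CPM in the control library (mean 1097 ± 66.4 SD over the 4 libraries). Mural-like cells, which wrap vessels as pericytes and smooth muscle, held 701, 825 and 858 CPM in the OSA libraries and 757 CPM in the control library (785 ± 70.1 SD over the 4 libraries). Lymphatic endothelial-like cells held 197, 176 and 218 CPM in the OSA libraries and 192 CPM in the control library. The ranges of these 3 classes did not overlap, so that their order was the same in each of the 4 libraries. The OSA values lay on both sides of the control value in all 3.

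In the other classes, Epas1 ranged from 49.2 CPM in neutrophil-like cells of OSA library 3 to 203 CPM in T and NK-like cells of OSA library 1. The ranges of neighbouring classes in the order overlapped. That of T and NK-like cells, 87.0 to 203 CPM, also overlapped that of lymphatic endothelial-like cells, 176 to 218 CPM. Free RNA from other cells adds counts to every droplet and keeps the ratio between the genes of its source, so Epas1 was also set against the endothelial markers read in the same cells. Per 100 UMIs of the 7 endothelial markers, endothelial-like cells held 12.7, 13.8 and 16.7 Epas1 UMIs in the OSA libraries and 13.3 in the control library. Neutrophil-like cells held 14.8, 14.5 and 11.7 in the OSA libraries and 13.3 in the control library, the last from 4 Epas1 UMIs. These values lay within the endothelial range of 12.7 to 16.7 except in OSA library 3. Mural-like cells held 23.2 to 33.1 over the 4 libraries, tenocyte-like cells 21.8 to 37.4 and fibroblast-like cells 20.5 to 32.8, and Schwann-like cells 17.2 to 20.9, all above the endothelial range. T and NK-like cells held 10.6 to 22.5, macrophage-like cells 12.6 to 24.97 and satellite-like cells 15.7 to 23.5, which overlapped it, and lymphatic endothelial-like cells 6.54 to 9.07, below it. The endothelial markers themselves summed to 2942, 3556 and 2593 CPM in mural-like cells of the OSA libraries and 2926 CPM in those of the control library. In fibroblast-like cells they summed to 392, 319 and 209 CPM in the OSA libraries and 270 CPM in the control library. Mural-like cells thus carried many endothelial transcripts in each library. Free RNA can mix several sources, among them mural-like cells with their higher ratio. A value above the endothelial range therefore does not show where its Epas1 came from. The part of free RNA in these Epas1 counts, those of mural-like cells included, was not tested. At least 1 Epas1 UMI was found in 92.0%, 93.2% and 92.2% of endothelial-like cells of the OSA libraries and 91.4% of those of the control library. In satellite-like cells the shares were 29.8%, 29.6% and 17.4% in the OSA libraries and 20.96% in the control library, although their median depth of 4668.5 to 6189.5 UMIs was above the 3337 to 3866 UMIs of endothelial-like cells. After each cell was thinned to 1000 UMIs, the shares were 63.0%, 64.8% and 68.4% in endothelial-like cells of the OSA libraries and 62.5% in those of the control library, and 4.06% to 6.58% in satellite-like cells over the 4 libraries.

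Hif1a followed another pattern, with its highest levels in leukocytes and a narrower range. Neutrophil-like cells held 243, 169 and 61.5 CPM in the OSA libraries and 202 CPM in the control library (169 ± 77.9 SD over the 4 libraries). T and NK-like cells held 149, 121 and 92.1 CPM in the OSA libraries and 83.5 CPM in the control library. Endothelial-like cells stood last in the order of means, at 56.2, 51.1 and 34.7 CPM in the OSA libraries and 43.1 CPM in the control library. Neutrophil-like cells were highest in 3 of the 4 libraries and T and NK-like cells in OSA library 3, and no 2 neighbours in the order differed beyond their spread. The control value for neutrophil-like cells rests on 15 UMIs from 42 cells.

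The share of Epas1 among Epas1 and Hif1a UMIs summarised this contrast, since it does not depend on the class total. It is a share of UMIs and not of transcripts per length, and free RNA can enter it as it can enter the counts. The share was 95.9% in endothelial-like cells (range 94.9% to 97.2% over the 4 libraries) and 92.7% in mural-like cells (91.0% to 95.4%). It was 80.4% in lymphatic endothelial-like, 69.4% in tenocyte-like, 64.9% in Schwann-like and 57.4% in fibroblast-like cells. T and NK-like cells had 55.3%, satellite-like cells 54.9%, macrophage-like cells 46.7% and neutrophil-like cells 28.9% (21.1% to 44.4%).

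**Figure D1:**
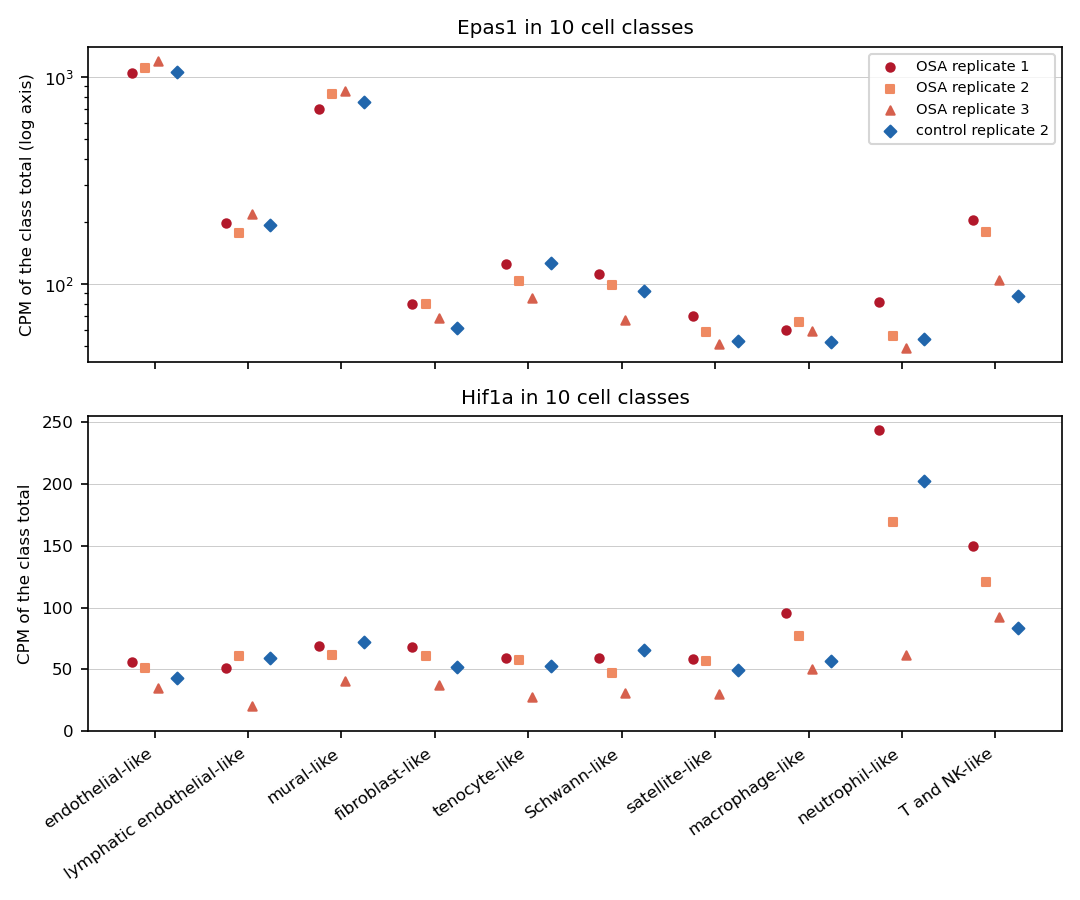
Levels of Epas1 (logarithmic axis) and Hif1a (linear axis) in CPM in 10 cell classes, with 1 point for each of OSA libraries 1, 2 and 3 and the control library. Epas1 of endothelial-like cells lies between 1040 and 1189 CPM in all 4 libraries, while Hif1a is highest in neutrophil-like cells and lowest in OSA library 3 in most classes.

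Within vessels the alpha subunits and sensors divided cells by vessel type. Capillary-like clusters held 986, 1052 and 1164 CPM of Epas1 in the OSA libraries and 1004 CPM in the control library, and the venous-like cluster 551, 514 and 560 CPM in the OSA libraries and 638 CPM in the control library. An endothelial cluster led by Scgb3a1, Btnl9 and Rbp7, with Hey1 and Sema3g among its leading genes, carried markers of capillaries and arteries and stayed unnamed. It held the highest Epas1 of any cluster in all 4 libraries, at 1219, 1310 and 1481 CPM in the OSA libraries and 1237.5 CPM in the control library. The venous-like cluster had more Hif1a than capillary-like cells in every library, at 109, 86.6 and 55.4 CPM in the OSA libraries and 72.4 CPM in the control library, against 54.2, 49.5 and 34.6 CPM and 41.9 CPM in capillary-like cells. Its Epas1 share was 87.5%, against 95.9% in capillary-like cells. Smooth muscle-like cells stood to pericyte-like cells in the same way, with an Epas1 share of 86.6% against 95.3%.

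Egln1 and Egln3, which encode the prolyl hydroxylases PHD2 and PHD3, lay in opposite vessel types. Egln1 was highest in capillary-like cluster c3, at 166, 211 and 185 CPM in the OSA libraries and 153 CPM in the control library. The other capillary-like cluster, c7, held 141.5, 146 and 124 CPM of Egln1 in the OSA libraries and 117 CPM in the control library. The venous-like cluster held 82.2, 68.9 and 71.5 CPM of Egln1 in the OSA libraries and 51.6 CPM in the control library. Both capillary-like clusters were thus above the venous-like cluster in all 4 libraries. Egln3 was the reverse, at 27.1, 26.5 and 25.9 CPM in venous-like cells of the OSA libraries and 43.0 CPM in those of the control library. Capillary-like cells held 3.7, 4.8 and 4.3 CPM of Egln3 in the OSA libraries and 4.5 CPM in the control library. Egln3 also separated the 2 pericyte-like clusters. Cluster c17, led by Kcnj8, Abcc9 and Vtn, held 26.7, 32.6 and 24.8 CPM of Egln3 in the OSA libraries and 26.7 CPM in the control library. Cluster c23, led by Higd1b, Rgs5 and Kcnj8, held 8.6, 11.5 and 6.7 CPM of Egln3 in the OSA libraries and 10.2 CPM in the control library.

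**Figure D2:**
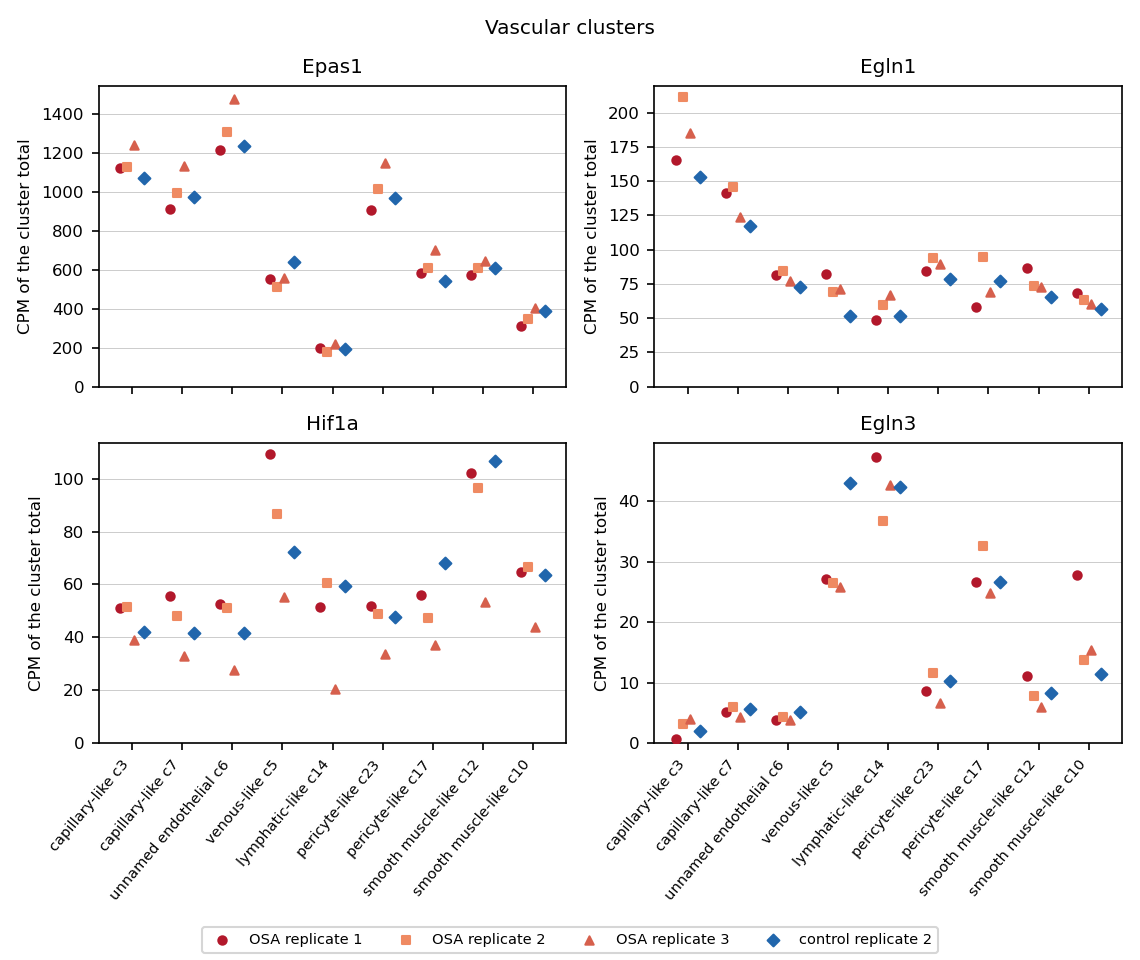
Levels of Epas1, Egln1, Hif1a and Egln3 in CPM in 9 clusters of blood vessel, lymphatic and mural cells, with 1 point for each of OSA libraries 1, 2 and 3 and the control library. Egln1 is highest in capillary-like cluster c3 (153 to 211 CPM) and Egln3 is low there but at 25.9 to 43.0 CPM in the venous-like cluster.

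Arnt, which encodes the partner of every alpha subunit, was read in all 10 classes. It was highest in fibroblast-like cells in 4 of 4 libraries, at 172, 137 and 90.4 CPM in the OSA libraries and 129 CPM in the control library (132 ± 33.5 SD over the 4 libraries). Satellite-like cells, the stem cells of muscle, followed with 94.1, 102 and 71.5 CPM in the OSA libraries and 86.4 CPM in the control library, a range that overlapped that of fibroblast-like cells. Neutrophil-like cells stood last, at 16.4 to 67.4 CPM over the 4 libraries.

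Hif3a encodes the least studied alpha subunit, some of whose splice forms act as inhibitors of HIF in mice and humans. Schwann-like cells, the glia of nerves, held 18.7, 20.2 and 13.8 CPM in the OSA libraries and 13.7 CPM in the control library. They were highest in 4 of 4 libraries and did not overlap with mural-like cells, the next class, at 10.9, 7.2 and 10.1 CPM in the OSA libraries and 7.1 CPM in the control library. Within Schwann-like cells, Hif3a lay mainly in cluster c8, led by Col20a1, Csmd1 and Rasgef1c, at 43.4, 44.6 and 32.8 CPM in the OSA libraries and 34.4 CPM in the control library. Cluster c0, with the myelin gene Mbp among its leading genes, held 7.7, 2.2 and 3.4 CPM in the OSA libraries and 4.6 CPM in the control library. Cluster c8 made up 25.6%, 30.6% and 28.2% of Schwann-like cells in the OSA libraries and 21.2% in the control library. No Hif3a UMI was found in neutrophil-like cells of any library, where 3 UMIs would have been 7.45, 1.88 and 6.15 CPM in the OSA libraries and 40.5 CPM in the control library. Intervals and floors of this kind cover counting error only.

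Among the sensors, Egln1 was highest in endothelial-like cells in 4 of 4 libraries, at 125, 148 and 117 CPM in the OSA libraries and 108 CPM in the control library. The next class, Schwann-like cells, held 87.7, 87.9 and 99.9 CPM in the OSA libraries and 79.1 CPM in the control library, and the ranges did not overlap. Egln1 was lowest in neutrophil-like cells, at 14.9, 18.8 and 12.3 CPM in the OSA libraries and 13.5 CPM in the control library. The control value rests on 1 UMI. Egln2, which encodes PHD1, varied less between classes: its highest means were 60.0 CPM in lymphatic endothelial-like and 59.9 CPM in endothelial-like cells, its lowest 22.5 CPM in neutrophil-like cells, and all neighbours overlapped.

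Egln3 was the sensor with the most uneven distribution. Lymphatic endothelial-like cells held 47.4, 36.8 and 42.7 CPM in the OSA libraries and 42.3 CPM in the control library. Neutrophil-like cells held 77.0, 16.3 and 69.7 CPM in the OSA libraries and 40.5 CPM in the control library, from 31, 26 and 34 UMIs in the OSA libraries and 3 UMIs in the control library. T and NK-like cells held 46.8, 34.8 and 27.2 CPM in the OSA libraries and 5.2 CPM in the control library, which are described further below. Mural-like cells held 9.0 to 13.5 CPM over the 4 libraries, and the other 6 classes had means of 2.28 to 5.66 CPM. Neutrophil-like cells thus combined the highest mean levels of Hif1a and Egln3 with the lowest of Egln1, Egln2 and Arnt. The control values of Egln1 and Egln2 in these means rest on 1 UMI each. For Hif1a, Egln3, Egln2 and Arnt the range of neutrophil-like cells overlapped that of the next class in the order. Egln3 was highest in neutrophil-like cells in 2 of the 4 libraries.

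Vhl and Hif1an were scarce throughout. Vhl held 22.4, 13.8 and 28.7 CPM in neutrophil-like cells of the OSA libraries and 27.0 CPM in those of the control library, the last from 2 UMIs. The other 9 classes had mean Vhl levels of 7.54 to 11.5 CPM. Hif1an had class means of 4.35 CPM in neutrophil-like cells to 14.98 CPM in T and NK-like cells, and all neighbours in the order overlapped.

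**Figure D3:**
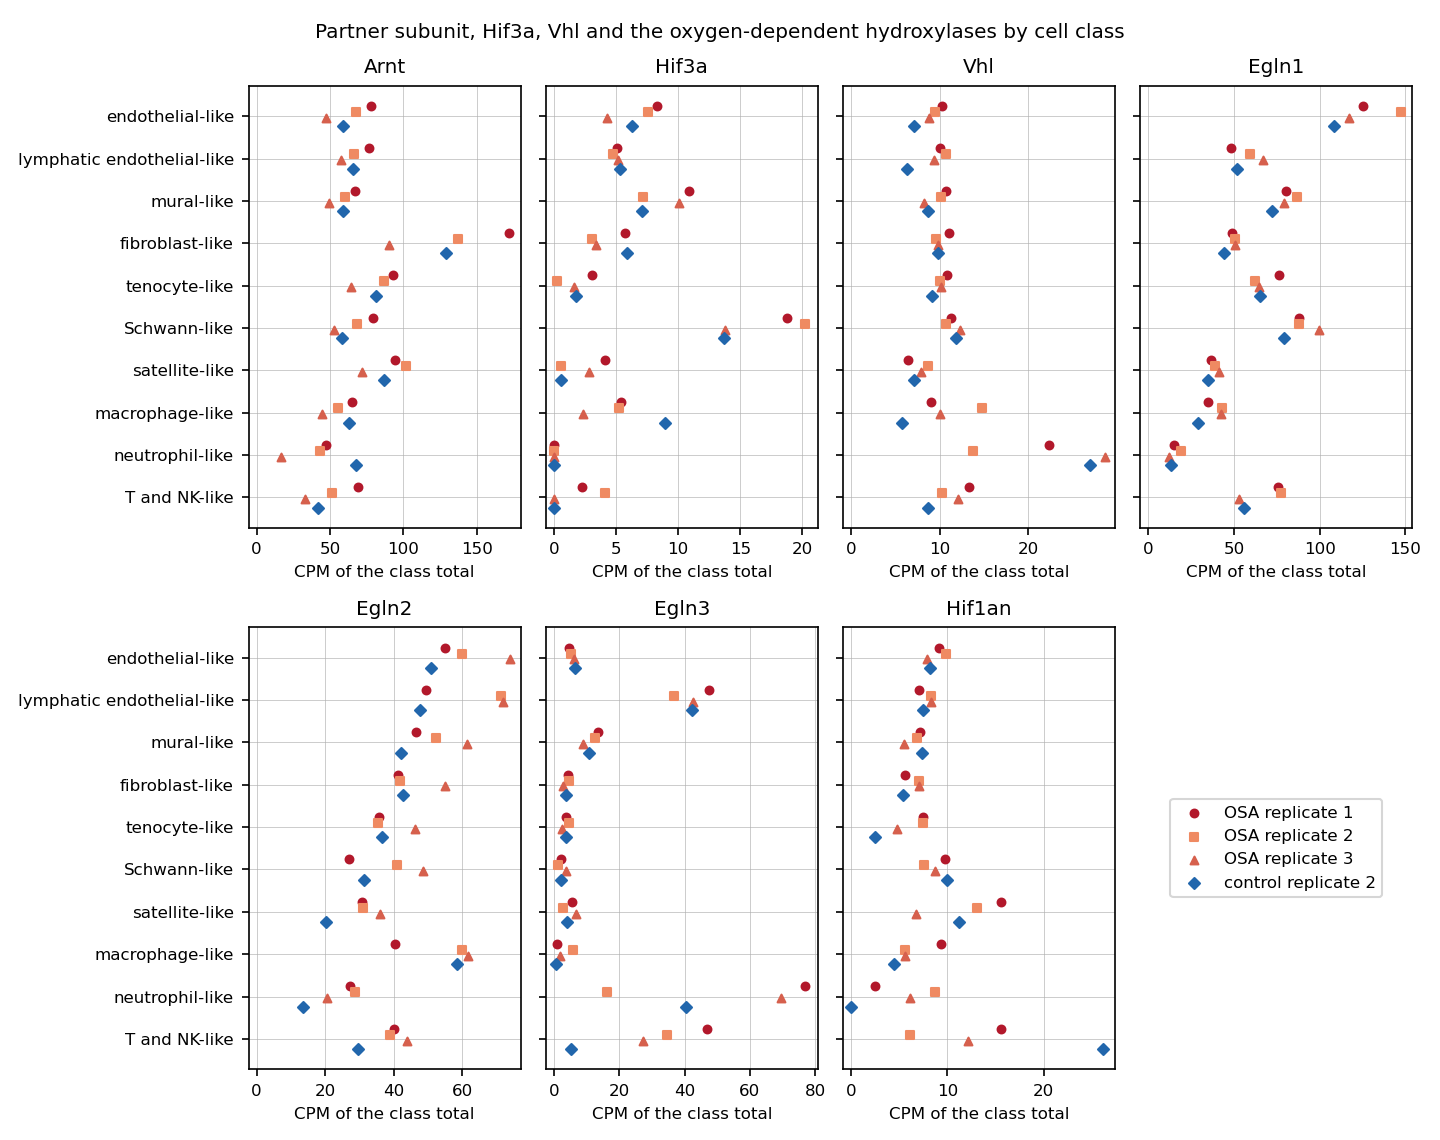
Levels of Arnt, Hif3a, Vhl, Egln1, Egln2, Egln3 and Hif1an in CPM, with classes down the page and 1 point for each of OSA libraries 1, 2 and 3 and the control library. Arnt stands out in fibroblast-like cells, Hif3a in Schwann-like cells, Egln1 in endothelial-like cells, and Egln3 in neutrophil-like, lymphatic endothelial-like and T and NK-like cells.

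The comparison of OSA with control asked whether week 4 of the model changed any member in any class. Counts were summed per library and class, and all genes of a class were tested with edgeR's quasi-likelihood test and Benjamini-Hochberg adjustment at 0.05. Of 90 pairs of member and class, 80 had enough counts to be tested. No pair was called by edgeR or by DESeq2 (0 each), but DESeq2 gave no adjusted p for Egln3 in T and NK-like cells. With edgeR, 3 pairs had an unadjusted p under 0.05. The percentage of all tested genes called in the same fits was 1.61% in T and NK-like, 0.755% in macrophage-like, 0.172% in Schwann-like, 0.0906% in satellite-like, 0.0561% in mural-like, 0.0402% in lymphatic endothelial-like and 0.0157% in tenocyte-like cells. It was 0% in endothelial-like, fibroblast-like and neutrophil-like cells, where 819, 695 and 340 genes reached an unadjusted p under 0.05 and calls by DESeq2 numbered 38, 36 and 0.

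The log2 change, OSA minus control, was positive in 63 of the 80 pairs, and its median was 0.18. Over all 121557 pairs of gene and class tested, 52.8% were positive and the median was 0.03. The control library lay below all 3 OSA libraries in 27 of the 80 pairs, against 24.1% of all pairs of gene and class, and above them in 10, against 28.5%. With 1 control library, such an order can be a property of that library, and this was not tested. By gene, Egln1 was positive in 9 of 9 classes (median 0.22), Egln2 in 9 of 10 (0.38), Epas1 in 9 of 10 (0.16), Vhl in 8 of 9 (0.20), Egln3 in 8 of 9 (0.15) and Arnt in 8 of 10 (0.06). Hif1a was positive in 4 of 10 (-0.02), Hif3a in 3 of 5 (0.17) and Hif1an in 5 of 8 (0.14). None of these counts has a test of its own, and the classes of 1 library share their muscle and their preparation.

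**Figure D4:**
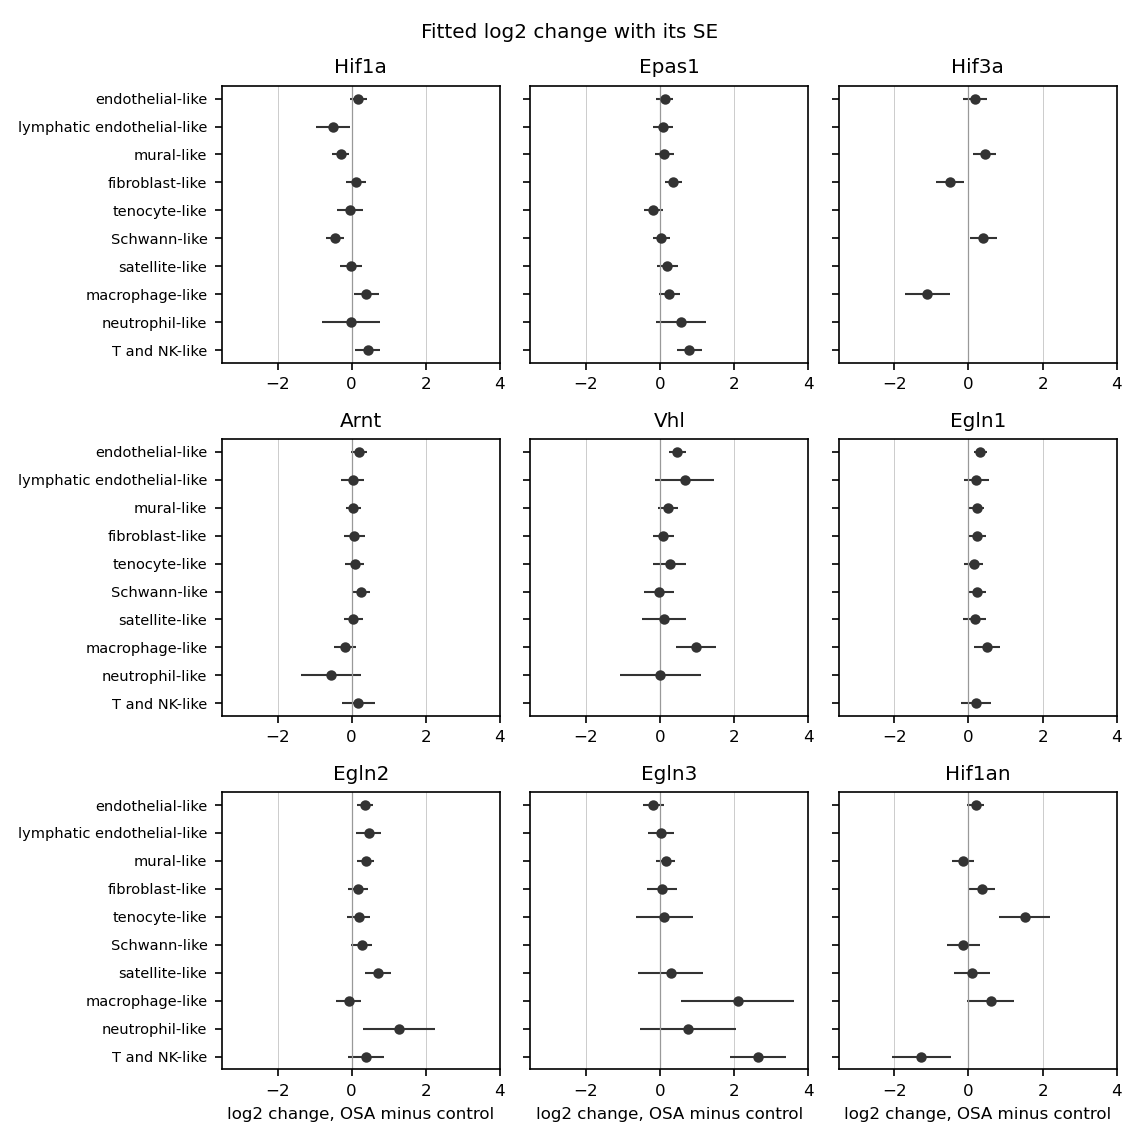
Log2 change of each member, OSA minus control, with its standard error by class, from edgeR. The point farthest from 0 is Egln3 in T and NK-like cells (2.64 ± 0.75), and the widest standard error, 1.52, is that of Egln3 in macrophage-like cells.

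In the vessel wall, where Epas1 is most abundant, its levels in OSA and control were close. The log2 change was 0.13 ± 0.23 (SE) in endothelial-like cells (edgeR adjusted p = 0.962) and 0.11 ± 0.26 in mural-like cells (adjusted p = 0.999). That of Hif1a was 0.19 ± 0.22 in endothelial-like cells (adjusted p = 0.956) and -0.29 ± 0.23 in mural-like cells (adjusted p = 0.999). Among the sensors and Vhl, log2 changes in endothelial-like cells were 0.32 ± 0.18 for Egln1, 0.36 ± 0.23 for Egln2, 0.47 ± 0.23 for Vhl and 0.19 ± 0.23 for Hif1an, each at an adjusted p of 0.956. The control library lay below every OSA library for Egln1, Egln2 and Vhl, as it did for 21.5% of the genes tested in endothelial-like cells. Egln3 had a log2 change of -0.18 ± 0.28 (adjusted p = 0.959), and the control library lay above every OSA library, as it did for 30.9% of the genes. Egln2 of satellite-like cells had a log2 change of 0.71 ± 0.36 (adjusted p = 0.770), with 30.7, 31.1 and 36.0 CPM in the OSA libraries and 20.1 CPM in the control library. Hif1a of Schwann-like cells had one of -0.46 ± 0.25 (adjusted p = 0.999), with 59.2, 47.4 and 31.1 CPM in the OSA libraries and 66.0 CPM in the control library.

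The pair closest to the threshold was Egln3 in T and NK-like cells. Its UMIs numbered 21, 17 and 18 in the OSA libraries, from 99, 86 and 183 cells, and 3 in the control library, from 129 cells. The log2 change was 2.64 ± 0.75, with an adjusted p of 0.0513. As a ratio of summed counts it was 6.71, with a 95% counting interval of 2.18 to 33.5. All 3 OSA libraries were above the control library, as for 32.2% of the genes tested in the class, and the control value rests on 3 UMIs. Without OSA replicate 3 the log2 change was 2.80 and was called (adjusted p = 0.0115). It was 1.82 with doublets kept (adjusted p = 0.169), and 2.40 after thinning to equal totals (adjusted p = 0.121).

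The make-up of the T and NK-like class differed between libraries. Cluster i17, led by Scart1, Ikzf3, Cd3g and Trdc, made up 20.2%, 27.9% and 29.0% of the class in the OSA libraries and 2.33% in the control library. Cluster i18, led by the cytotoxic genes Ccl5, Gzma and Nkg7, made up 11.1%, 11.6% and 7.65% in the OSA libraries and 28.7% in the control library. Egln3 UMIs of cluster i17 numbered 10, 6 and 5 in the OSA libraries and 0 in the control library, which had 3 such cells. Cluster i4, with Areg and Kcnq5 among its leading genes, made up 30.3%, 38.4% and 19.1% of the class in the OSA libraries and 15.5% in the control library. It held 7, 7 and 5 Egln3 UMIs in the OSA libraries and 0 in 20 cells of the control library. Cluster i13, led by Trbc2, Grap2 and Skap1, made up 38.4%, 22.1% and 44.3% in the OSA libraries and 53.5% in the control library. It held 3, 4 and 7 Egln3 UMIs in the OSA libraries and 3 in the control library. Cluster i18 held 1, 0 and 1 in the OSA libraries and 0 in the control library. Egln3 was therefore spread over several clusters of the OSA libraries. In sums over a class, a change in its mix of cells and a change of RNA per cell cannot be told apart. The same holds after cluster i17 is left out, since clusters i4, i13 and i18, whose shares also differed between libraries, remain. Without cluster i17, a choice made after the data were seen, the log2 change was 2.35 ± 0.86 and its adjusted p 0.396, where 0.493% of genes were called.

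Epas1 of T and NK-like cells was 203, 178 and 104 CPM in the OSA libraries and 87.0 CPM in the control library, a log2 change of 0.79 ± 0.34 with an adjusted p of 0.394. Without OSA replicate 3 the change was 1.02 and was called (adjusted p = 0.0208). With doublets kept it was 0.45 (adjusted p = 0.696). The endothelial markers in the same cells summed to 1351, 792 and 556 CPM in the OSA libraries and 821 CPM in the control library, so the class carried endothelial transcripts in each library and most of all in OSA library 1. Per 100 UMIs of these markers, T and NK-like cells held 15.02, 22.5 and 18.75 Epas1 UMIs in the OSA libraries and 10.6 in the control library.

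In macrophage-like cells Hif3a was 5.4, 5.3 and 2.3 CPM in the OSA libraries and 9.0 CPM in the control library, a log2 change of -1.11 ± 0.61 with an adjusted p of 0.426. Most of these UMIs lay in cluster i9, led by Retnla, Folr2 and Cbr2 with Lyve1 and Mrc1 among its leading genes. It held 20.1, 22.5 and 12.7 CPM of Hif3a in the OSA libraries and 15.4 CPM in the control library, whereas cluster i0, led by Retnla and H2-Ab1 with 7 macrophage and 3 dendritic cell markers, held 1 UMI of Hif3a over the 4 libraries. Cluster i9 made up 25.7%, 26.1% and 13.1% of macrophage-like cells in the OSA libraries and 67.7% in the control library. Within i9, where 0.491% of genes were called, the log2 change of Hif3a was 0.24 ± 0.59 (adjusted p = 0.999). The part of the class make-up in the value of the whole class was not tested.

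Among clusters fitted alone, the lowest p-value of a member was that of Hif3a in a cluster of fibroblast-like cells. Cluster c25, led by Sfrp2, Sfrp4, C3 and C4b, held 4.8, 1.4 and 2.0 CPM in the OSA libraries and 13.9 CPM in the control library, from 23, 5 and 30 UMIs in the OSA libraries and 42 UMIs in the control library. The log2 change was -2.30 ± 0.57, with an adjusted p of 0.320 where 0.015% of genes were called. Without OSA replicate 1 it was -2.82 and called (adjusted p = 0.0264), and without OSA replicate 2 it was -2.05 and called (adjusted p = 0.0442). Without OSA replicate 3 it was -2.08 and not called (adjusted p = 0.170). The cluster was fitted alone after the data were seen. It held 483, 426 and 1497 cells of the OSA libraries and 387 of the control library. In fibroblast cluster c19, led by Smoc2 and Myoc, Hif3a was 5.7, 3.3 and 5.7 CPM in the OSA libraries and 4.2 CPM in the control library, which overlapped.

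The control library held 42 neutrophil-like cells. In this class 0 genes were called by edgeR, against 71 without OSA replicate 2. Egln3 there had a log2 change of 0.75 ± 1.31 (adjusted p = 0.904), and its ratio of summed counts was 0.903 with a 95% counting interval of 0.299 to 4.46. The OSA libraries differed among themselves with the clusters they held. Cluster i25, led by the granule genes Ngp, Camp and Ltf, held 42.6% of the class in OSA library 2 and at most 0.410% in any other library. It had 5.2 CPM of Egln3 there. Cluster i14, led by Retnlg, Il1b and S100a9, held 37.8, 34.1 and 28.8 CPM of Egln3 in the OSA libraries and 45.5 CPM in the control library, and cluster i8, led by Il36g, Ccl3 and Acod1, held 110.5, 24.4 and 81.1 CPM in the OSA libraries and 0 UMIs in 4 cells of the control library. Hif1a was 297, 296 and 86.3 CPM in cluster i14 of the OSA libraries and 197 CPM in that of the control library.

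Beside Egln3 and Epas1 in T and NK-like cells, the pair with an unadjusted p under 0.05 was Hif1an in tenocyte-like cells, with 24, 33 and 15 UMIs in the OSA libraries and 4 UMIs in the control library. Its log2 change was 1.51 ± 0.69 with an adjusted p of 1.000. In T and NK-like cells the change of Hif1an was of opposite sign, at -1.27 ± 0.80 (adjusted p = 0.683), with 7, 3 and 8 UMIs in the OSA libraries and 15 UMIs in the control library. Vhl of macrophage-like cells had a log2 change of 0.98 ± 0.53 (adjusted p = 0.426), with the control value resting on 9 UMIs.

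Single OSA libraries also stood apart for several members. OSA library 3 had the lowest Arnt level in 10 of 10 classes, which was so for 3.63% of the 4714 genes tested in every class. It had the lowest Hif1a level in 9 of 10 classes, against 11.6% of genes that were lowest there in at least 9. It had the highest Egln2 level in 9 of 10 classes, against 3.25% of genes that were highest there in at least 9. OSA library 1 was highest for Arnt in 8 classes, against 2.82% of genes with at least 8 such classes, and for Hif1a in 7, against 5.66% of genes with at least 7. The control library was lowest for Egln2 in 6 classes, against 11.7% of genes. Ribosomal-protein transcripts, which take up a large part of all UMIs, summed to 116084, 127484 and 152878 CPM in endothelial-like cells of the OSA libraries and 119687 CPM in those of the control library. In that class OSA library 3 had the highest ribosomal sum and the lowest Hif1a and Arnt. In T and NK-like and neutrophil-like cells, where OSA library 3 was also lowest for Arnt, the control library had the highest ribosomal sum. It was 279356 CPM against 252175 CPM in OSA library 3 for T and NK-like cells, and 52551 against 45787 CPM for neutrophil-like cells. OSA library 3 had the highest sum in the other classes. The part of that sum in the levels was not tested.

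**Figure D5:**
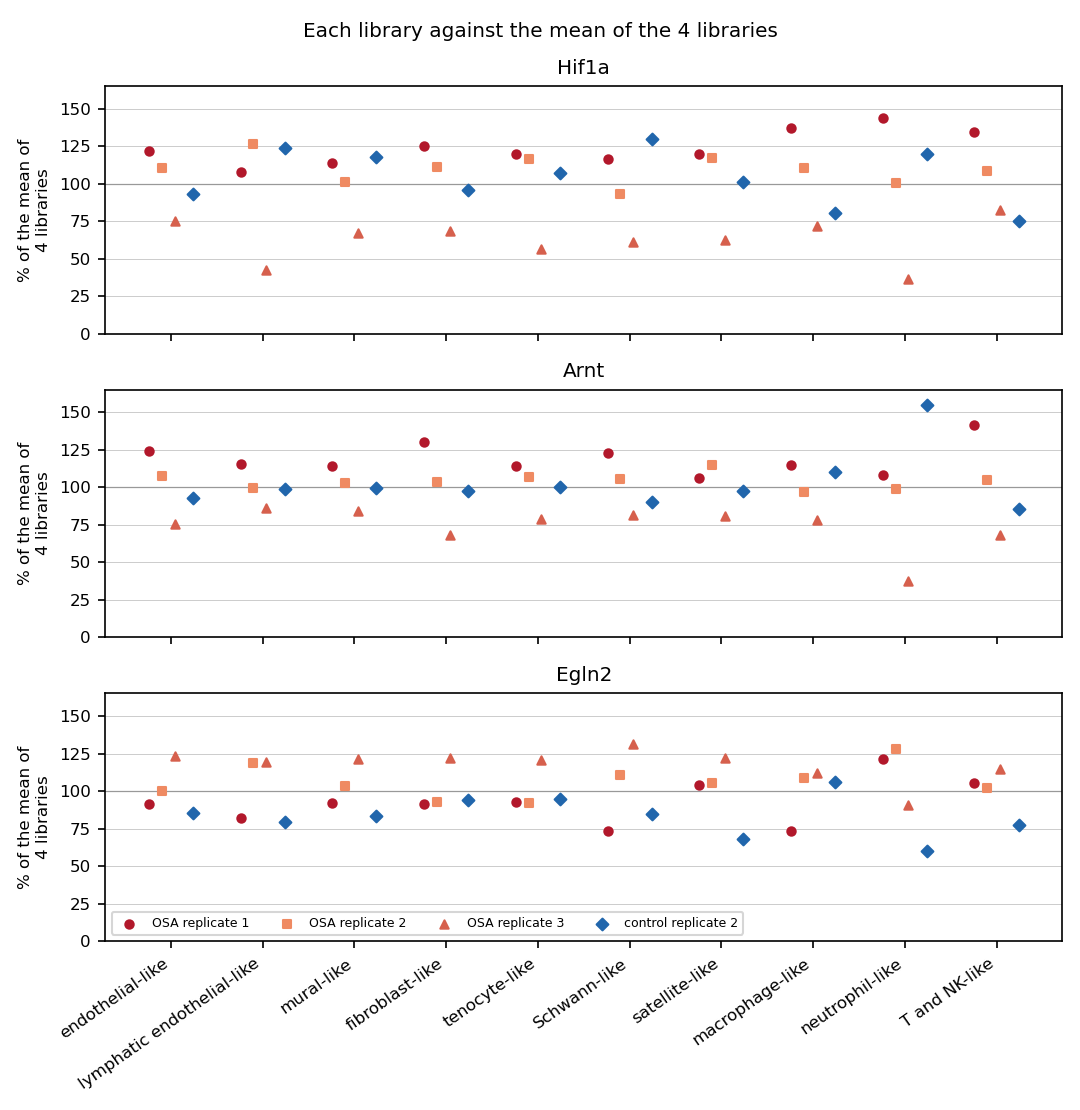
Levels of Hif1a, Arnt and Egln2 in OSA libraries 1, 2 and 3 and the control library, each as a percentage of the mean of the 4 libraries in the same class. OSA library 3 lies lowest for Arnt in 10 of 10 classes and for Hif1a in 9, and highest for Egln2 in 9.

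Whether the OSA change of a member differed between classes was tested with all classes in 1 fit and the library as a block, which takes out what all classes of a library share. Of 16784 genes, 45 (0.268%) were called by edgeR's quasi-likelihood test, and none of the 9 members was among them, with 1404 genes at an unadjusted p under 0.05. The lowest value among members was that of Hif1a, with an adjusted p of 0.668. For Egln3, T and NK-like cells differed from the mean of the other classes by 2.28 ± 1.19 on the log2 scale (adjusted p = 0.730). No class-specific OSA change of a member was thus shown.

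Genes that work with HIF or answer to it were read from lists written by hand with earlier results of these data known. Of the 16 cofactors and degradation partners, 11 to 16 could be tested in a class, and 1 gene in 1 class was called. Cited2, which encodes a protein that competes with HIF for its coactivators, fell in macrophage-like cells by 1.52 ± 0.26 on the log2 scale (adjusted p = 0.0318). It held 98.8, 84.7 and 67.6 CPM in the OSA libraries and 241 CPM in the control library. The difference was smaller within clusters: i9 held 235, 137 and 160 CPM of Cited2 in the OSA libraries and 330 CPM in the control library, and i0 held 65.7, 60.4 and 59.4 CPM in the OSA libraries and 61.6 CPM in the control library. Cluster i9, which is richer in Cited2, held 67.7% of macrophage-like cells in the control library, as given above. The part of that difference in make-up was not tested. None of the 8 other oxygen-dependent dioxygenases was called by edgeR or DESeq2 in any class, and of 76 pairs of gene and class 3 had an unadjusted p under 0.05.

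HIF target genes, 25 in the list, had 20 to 24 members tested per class. In endothelial-like cells 18 of 24 had a positive log2 change (median 0.18), where 51.7% of all genes did (median 0.01). In fibroblast-like and mural-like cells 19 of 24 did (medians 0.21 and 0.16), against 52.8% and 51.6% of all genes. Macrophage-like cells had 18 of 23 (median 0.50, against 0.05 for all genes) and lymphatic endothelial-like cells 17 of 22 (0.30 against 0.02), against 53.5% and 52.4% of all genes. Schwann-like cells had 13 of 23 (0.03 against 0.02) and tenocyte-like cells 13 of 23 (0.11 against 0.02), against 52.7% and 52.4%. Satellite-like cells had 14 of 22 (0.20 against 0.02) and T and NK-like cells 13 of 20 (0.28 against 0.04), against 52.3% and 52.8%. Neutrophil-like cells had 14 of 20 (1.34 against 0.27), against 60.4%. These counts were not tested as sets, and each rests on 1 control library. In macrophage-like cells, cluster i9 made up 25.7%, 26.1% and 13.1% in the OSA libraries and 67.7% in the control library. Cluster i3, led by C1qb, Ctss and Ms4a7, made up 31.8%, 5.26% and 28.5% in the OSA libraries and 0.461% in the control library. How much such differences in make-up, or the control library itself, add to the medians was not tested. Of 225 pairs of target and class, edgeR called 1 and DESeq2 3, and 36 had an unadjusted edgeR p under 0.05. Macrophage-like cells held 9 of the 36, in a class where 1780 of all 12310 genes had such a p. The DESeq2 calls lay in endothelial-like, fibroblast-like and macrophage-like cells, and the edgeR call in T and NK-like cells, where 1.61% of all genes were called. Hk2, which encodes hexokinase 2, rose in T and NK-like cells by 1.76 ± 0.43 on the log2 scale (adjusted p = 0.038). Its levels were 95.9, 174 and 210 CPM in the OSA libraries and 45.2 CPM in the control library. All 3 OSA libraries were above the control library, as for 32.2% of the genes tested in the class. The adjusted p was 0.112 with DESeq2 and 0.147 with edgeR when at least 10 counts were asked of each library. The clusters of this class differed in share between libraries, as given above. For Hk2 too, a change in the mix of cells and a change of RNA per cell cannot be told apart.

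Transcripts known to respond to tissue dissociation were read in macrophage-like cells as well. Of 17 immediate early genes, edgeR called 1 and DESeq2 4, and the unadjusted edgeR p was under 0.05 for 12. Of 10 heat shock genes, edgeR called 0 and DESeq2 3, and the unadjusted edgeR p was under 0.05 for 5. Of all 12310 genes tested there, edgeR called 0.755% and DESeq2 1.88%, and 1780 had an unadjusted edgeR p under 0.05. The log2 change was positive in 1 of the 17 (median -0.76) and in 1 of the 10 (median -0.51), where 53.5% of all genes were positive (median 0.05). Egr1, an early response transcription factor, fell there by 1.38 ± 0.27 on the log2 scale (adjusted p = 0.0458), with 429, 393 and 264 CPM in the OSA libraries and 947 CPM in the control library. Within cluster i9 it held 1071, 830 and 786 CPM in the OSA libraries and 1265 CPM in the control library, and within i0 403, 269 and 238 CPM in the OSA libraries and 302 CPM in the control library. Without OSA replicate 1, neither Cited2 (adjusted p = 0.111) nor Egr1 (adjusted p = 0.155) was called. The immediate early genes summed to 13899, 12797 and 9204 CPM in macrophage-like cells of the OSA libraries and 21160 CPM in those of the control library. Their part in the values of the members was not tested.

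The genes whose levels most resembled those of a member were found by Pearson's correlation of log2(CPM + 1) over the 40 pairs of library and class, among 6658 genes. For Epas1 they were Esam, an endothelial adhesion molecule (r = 0.960), Snrk, a protein kinase (0.956), and Gpihbp1, which anchors lipoprotein lipase in capillaries (0.949). For Hif1a they were Ell2, a transcription elongation factor (0.846), Suco (0.841) and Cwc25, a splicing factor (0.819). For Egln3 they were Pglyrp1, a neutrophil granule protein that binds peptidoglycan (0.772), Dusp2, a phosphatase of MAP kinases (0.771), and Wbp1l (0.739). The points share libraries and depth, and Pglyrp1 averaged 1628 CPM in neutrophil-like, 206 CPM in lymphatic endothelial-like and 48.6 CPM in T and NK-like cells, the classes with the most Egln3. These values describe likeness of pattern over classes only.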

How the data were processed

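Droplet-based single-cell libraries of the mouse genioglossus were read from the matrices of 3 OSA libraries and 1 control library, and barcode lists of all 6 libraries were compared. The authors deposited raw UMI counts per gene and barcode, made with Cell Ranger 9.0.1 per the file headers, on builds GRCm39 and mm39 per the submitters' processing notes. How barcodes were called as cells and how reads were filtered are not given in the sources used here. No coordinates of the files were used.

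Cells were kept with at least 300 genes and 500 UMIs and at most 20% mitochondrial UMIs, which removed 17 to 31 barcodes from each OSA library and 21 from the control library. Doublets were called by Scrublet (scanpy 1.11.5, expected rate 0.1): 497, 356 and 551 in the OSA libraries and 450 in the control library. They were left out of sums. Leiden clusters (resolution 1, 2000 variable genes, 30 components, 15 neighbours, igraph 0.11.9) were made without the 9 members. Immune cells were clustered again, which gave the clusters with the letter i. A name needed at least 3 markers of a list, and clusters led by genes of another class, that mixed markers of several classes or held over 40% doublets stayed unnamed. The unnamed cells numbered 1719, 1003 and 2103 in the OSA libraries and 1490 in the control library.

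Counts were summed per library and class and tested with edgeR 4.0.16 in R 4.3.3 (filterByExpr, TMM scaling, robust quasi-likelihood fit, Benjamini-Hochberg adjustment over all genes of a class at 0.05). The control library was assumed to vary like the OSA libraries. Levels are unscaled CPM, computed here from the deposited counts. Alternatives were RLE size factors, DESeq2 1.42.0, filters on low counts, doublets kept, classes from each cell's own markers, thinning and leaving out each OSA library. Tests were checked on simulated counts. Of genes changed 2-fold there, 14% were called in neutrophil-like and 56% in mural-like cells, the lowest and highest of the classes. Of genes changed 4-fold, 52% and 99% were called in these classes. A pair that was not called can thus have changed 2-fold. The replicate numbers could not pair the samples.

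The members and gene lists were chosen with earlier results of these data known. All 9 members are named in every class. From the other lists each gene past the threshold is named, up to 6 per list and class, and the 3 genes most like Hif1a, Epas1 and Egln3. Genes with clone-type symbols are not named.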

Additional observations from a re-analysis of the deposited data

How the results depend on the processing

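No paired analysis was possible because only replicate number 2 had a matrix in both groups, and leaving out the only control library leaves no comparison. The number of member and class pairs called was 0 under every alternative that kept all libraries and 0 to 2 when an OSA library was left out; the 2 pairs, Egln3 and Epas1 in T and NK-like cells, were called without OSA replicate 3. Over all genes and classes, 265 calls became 1406 with no filter and 170 with at least 10 counts in each library, and 1086 to 1651 when an OSA library was left out. By class the lowest and highest numbers of calls over the alternatives were 0 and 303 in endothelial-like, 6 and 906 in macrophage-like, and 38 and 306 in T and NK-like cells. The test of a difference between classes called 45 genes, 25 with RLE size factors, 117 in classes of at least 100 cells and 7 to 532 without an OSA library, with 0 members each time. A set of 16 log2 changes was followed under 152 alternatives. It held the member and class pairs with the lowest unadjusted edgeR p-values, further pairs of endothelial-like and mural-like cells, and the called genes of the lists. Of the 152, 146 kept their direction and side of the threshold, 4 fell short of it (Hk2, Cited2 and Egr1, as given above), 2 passed it and 0 reversed. Pairs picked for a low p seldom reverse, and an uncalled pair that stayed uncalled counted as kept. The tally is therefore no measure of stability. Among all 80 pairs 22 changed sign under some alternative, the largest of them at 0.28 in size. Egln3 in T and NK-like cells could not be tested with at least 10 counts in each library and had no adjusted p from DESeq2. Classes from each cell's own markers gave 5 classes; there Epas1 of mural-like cells was 618.2 CPM, and its share with Hif1a was 89.93% in mural-like and 55.69% in Schwann-like cells. With doublets kept the share was 78.18% in Schwann-like, 64.12% in T and NK-like and 66.2% in satellite-like cells. The cause was not tested. Depth limits the values of Hif3a, Vhl, Hif1an and Egln3 in small classes, where the control library often held fewer than 10 UMIs.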
